A study of Mus musculus with 5 samples.

Results

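The genes described here encode 9 cytosolic enzymes that make NADPH or belong to the pentose phosphate pathway. They were listed by name from that biochemistry, with earlier results of these data known, and the rule itself uses no measured value: G6pdx, Pgls and Pgd of the oxidative branch, Rpia, Rpe, Tkt and Taldo1 of the non-oxidative branch, and the separate NADPH producers Me1 and Idh1. All 9 were among the 49246 genes with a transcript in every library, and all 9 were among the 10770 genes tested. RNA was sequenced from bone marrow-derived macrophages of wild-type C57BL/6 mice, grown from marrow for 6 days. Per the labels' protocols 96% of the cells carried the macrophage surface markers that were stained. One group (IL4+CBR-5884, 3 libraries, replicates 3, 4 and 5) first received CBR-5884 at 30 µM, which inhibits PHGDH, the enzyme that commits glycolytic carbon to serine, and the other (IL4+solvent, 2 libraries, replicates 3 and 5) received solvent. Every culture then received 10 ng/ml interleukin 4 (IL-4), which drives the alternative (M2) macrophage state, for 24 h, so these data hold no IL-4-free baseline. Nothing in the labels ties a replicate to its own animal or culture, and the p-values below therefore reflect the spread between these libraries alone, which may be technical.

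The pentose phosphate pathway branches from glycolysis at glucose 6-phosphate. Its oxidative branch reduces NADP to NADPH as it turns glucose 6-phosphate into ribulose 5-phosphate, and its non-oxidative branch rearranges sugar phosphates reversibly between pentoses and glycolytic intermediates. NADPH is the reductant for glutathione and thioredoxin recycling, for lipid synthesis and for the phagocyte NADPH oxidase. Several genes of the pathway and Me1 are textbook targets of NRF2, a transcription factor that binds antioxidant response elements together with a small MAF protein.

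Values are gene FPKM, the deposited estimate of fragments per kilobase of transcript relative to the mapped fragments of the library, summed over the transcripts of a gene. Because FPKM is per length, levels can be compared between genes. Fold changes are differences of log2(FPKM + 1), CBR-5884 minus solvent, with the standard error (SE) and the adjusted p of limma's moderated linear model over all genes tested. The threshold for calling a gene was an adjusted p of 0.05. The coverage in the files implies about 30230000 to 30700000 fragments per CBR-5884 library and 28310000 to 28850000 per solvent library. Over all genes tested 5 were called higher and 19 lower with CBR-5884 (0.0464% and 0.176%). At an unadjusted limma p below 0.05 there were 780 higher and 1334 lower (7.24% and 12.4%), but 1135 higher and 949 lower after rescaling to TPM. Each CBR-5884 library lay above both solvent libraries for 16.6% of genes tested and below both for 24.9%.

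None of the 9 enzyme genes was called, against 0.223% of all genes tested. At an unadjusted limma p below 0.05, Pgd, Taldo1 and Me1 were higher with CBR-5884 and Pgls and Idh1 lower, against 19.6% of all genes tested in either direction. That set changed with the scaling. Idh1 left it on the TPM scale and with median ratios. G6pdx entered it under both and after quantile normalization, and Rpe entered it with median ratios and quantile normalization. The groups did not overlap for 6 of the 9 genes: G6pdx, Pgd, Taldo1 and Me1 were higher in every CBR-5884 library than in both solvent libraries, and Pgls and Idh1 were lower. Among all genes tested 41.5% had groups that did not overlap. The 9 log2 fold changes ran from -0.44 for Pgls to 0.65 for Me1, with 6 positive and 3 negative, against 44.3% positive over all genes tested. Their median was 0.14, beside -0.03 over all genes tested.

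**Figure D1:**
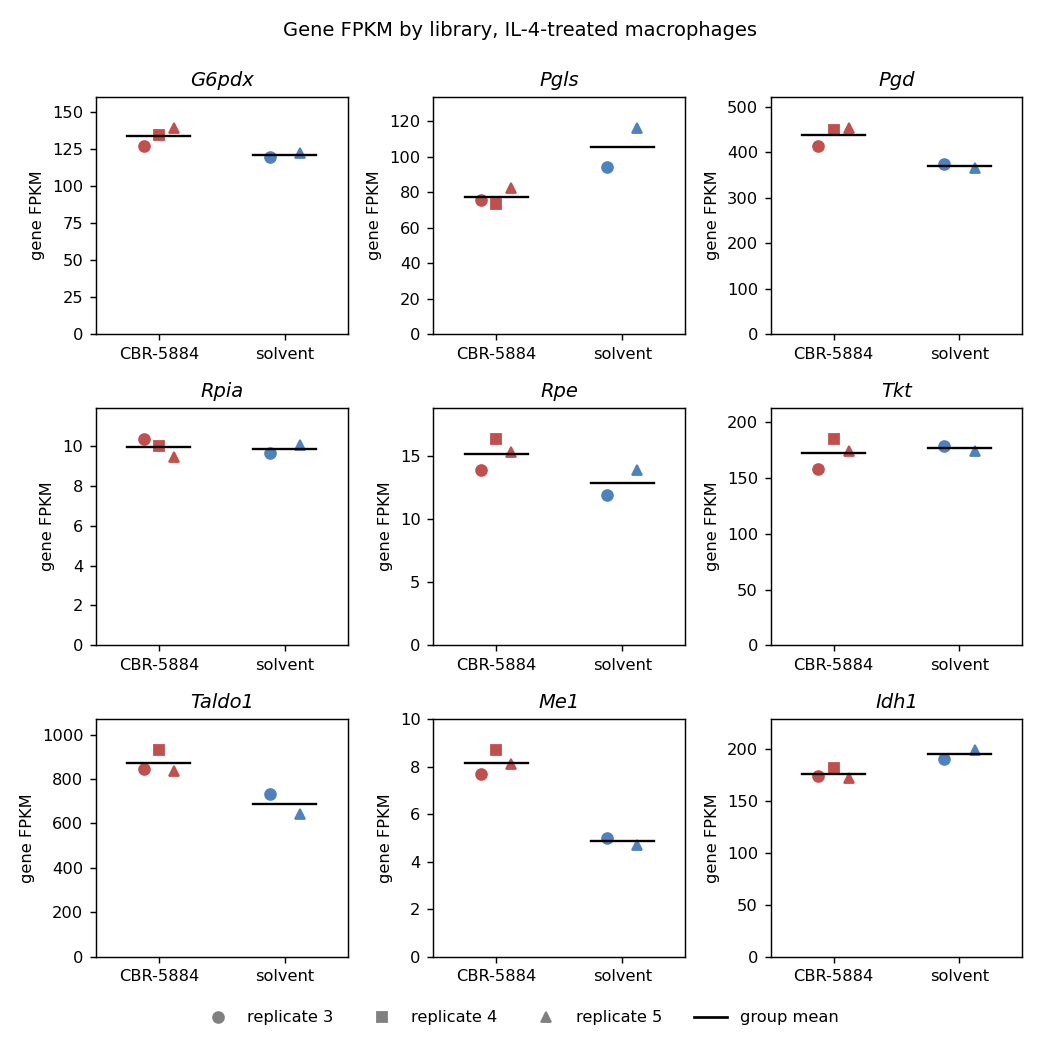
Gene FPKM (linear axis from 0) of the 9 enzyme genes in each library, CBR-5884 in red and solvent in blue, with the marker shape giving the replicate number and the bar the group mean. The groups do not overlap for G6pdx, Pgls, Pgd, Taldo1, Me1 and Idh1; they overlap for Rpia, Rpe and Tkt.

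Me1 had the largest difference of the 9. It encodes the cytosolic malic enzyme, which makes NADPH by oxidising malate to pyruvate (chromosome 9, 86581371 to 86695953, minus strand, GRCm38). Me1 was at 7.71, 8.71 and 8.11 FPKM in CBR-5884 replicates 3, 4 and 5, against 4.997 and 4.72 FPKM in solvent replicates 3 and 5. All 3 CBR-5884 libraries were therefore above both solvent libraries, and the ratio of the group means was 1.68. The log2 fold change was 0.65 (SE 0.07, 95% interval 0.46 to 0.84), with an unadjusted p of 0.000471 that ranked 59 of the 10770 genes and a limma adjusted p of 0.0857. All of its FPKM came from 1 reference transcript of 3288 nt and 14 exons. The deposited 95% intervals for that transcript, which cover estimation error within a library only, ran from 7.02 to 9.44 FPKM over the CBR-5884 libraries and from 4.20 to 5.52 FPKM over the solvent libraries. It was also the least abundant of the 9, with 439 to 865 implied fragments per library. Its exons overlap those of the antisense gene A330041J22Rik by 30 nt, and no source used here states whether the estimates used strand.

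The 3 tested genes whose profile over the 5 libraries was closest to that of Me1, by the root mean square difference of centred log2(FPKM + 1), were Serpinb9, Gclm and Raet1e, at differences of 0.027, 0.035 and 0.047. That profile includes the difference between the groups. Genes picked this way therefore have a fold change near that of the member by construction. Gclm, the modifier subunit of glutamate-cysteine ligase, stood at 331, 345 and 329 FPKM with CBR-5884, against 224 and 212 FPKM with solvent, and was called (log2 fold change 0.62, limma adjusted p = 0.0479). Serpinb9 reached 7.74, 8.68 and 8.22 FPKM with CBR-5884, against 4.75 FPKM in each solvent library, and was not called (limma adjusted p = 0.0705).

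Windows around RefSeq starts of Me1, G6pdx and Pgd are shown because, among the 9 genes, these hold the core letters of the antioxidant response element, TGACNNNGC on either strand. The G6pdx and Pgd windows lie wholly inside the span of the deposited transcript, downstream of its start, so they are not its promoter. RefSeq windows (GRCm38.p6) of 250 bases before to 50 after a start were found for all 9 genes, 12 windows in all. At least 1 window held the letters for 3 of the 9 genes, against 14% of the 27025 symbols with a window and 12.4% of the 32851 windows. The capitals mark the match, and each sequence runs 5′ to 3′ on the strand of its gene.
Me1, minus strand, chr9:86695865-86696164: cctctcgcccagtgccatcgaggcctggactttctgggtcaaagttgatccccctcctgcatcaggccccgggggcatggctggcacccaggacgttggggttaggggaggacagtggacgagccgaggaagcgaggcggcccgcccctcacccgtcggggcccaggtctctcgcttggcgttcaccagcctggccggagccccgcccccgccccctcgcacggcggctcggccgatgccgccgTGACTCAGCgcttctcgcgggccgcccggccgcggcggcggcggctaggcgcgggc
G6pdx, minus strand, chrX:74428831-74429130: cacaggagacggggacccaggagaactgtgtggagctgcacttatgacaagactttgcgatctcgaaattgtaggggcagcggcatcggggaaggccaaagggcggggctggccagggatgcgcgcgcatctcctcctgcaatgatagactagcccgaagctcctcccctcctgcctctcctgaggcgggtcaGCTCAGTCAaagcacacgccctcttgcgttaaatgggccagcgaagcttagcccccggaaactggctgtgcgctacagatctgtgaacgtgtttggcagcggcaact
Pgd, minus strand, chr4:149166033-149166332: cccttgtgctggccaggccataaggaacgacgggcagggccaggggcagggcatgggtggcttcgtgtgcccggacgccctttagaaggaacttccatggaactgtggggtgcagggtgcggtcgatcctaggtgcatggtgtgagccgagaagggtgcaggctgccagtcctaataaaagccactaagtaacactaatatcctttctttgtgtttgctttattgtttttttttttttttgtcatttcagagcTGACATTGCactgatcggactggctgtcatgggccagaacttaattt
The Me1 match, TGACTCAGC, begins 6 bases before the RefSeq start, which is 39 bases from the start of the transcript in the files. Those 9 letters, on either strand, are in 0.454% of all windows. The G6pdx match lies on the opposite strand 57 bases before a RefSeq start that is 314 bases downstream of the start of its deposited transcript. The Pgd window belongs to a second RefSeq start, 625 bases downstream of the start of the deposited transcript. The window of the RefSeq start that is 2 bases from that transcript start holds no match. A match describes letters and does not show binding.

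Of the oxidative branch, G6pdx and Pgd were higher with CBR-5884 in every library and Pgls was lower. G6pdx encodes glucose-6-phosphate dehydrogenase, the committed and first NADPH-producing step (chromosome X, 74409483 to 74429194). G6pdx was at 127, 134 and 139 FPKM in CBR-5884 replicates 3, 4 and 5, against 120 and 122 FPKM in solvent replicates 3 and 5. The groups did not overlap, but the lowest CBR-5884 value and the highest solvent value were close, and the deposited intervals of the groups met. Its log2 fold change was 0.14 (SE 0.06, 95% interval -0.0032 to 0.29, limma adjusted p = 0.263). G6pdx shares 418 nt of exons with Ikbkg on the opposite strand. The retrogene G6pd2 did not exceed 0.0162 FPKM in any library.

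Pgd encodes 6-phosphogluconate dehydrogenase, the second NADPH-producing step (chromosome 4, 149149991 to 149166771). With CBR-5884, Pgd had 414, 449 and 454 FPKM, against 374 and 366 FPKM with solvent. The groups were apart, and so were their deposited intervals, from 408 to 459 FPKM with CBR-5884 and from 361 to 379 FPKM with solvent. The log2 fold change was 0.24 (SE 0.06, 95% interval 0.093 to 0.40, limma adjusted p = 0.152). G6pdx stood at 0.305 ± 0.004 times the FPKM of Pgd with CBR-5884 (SD, n = 3) and at 0.327 ± 0.010 times with solvent (SD, n = 2), so the first step was the less abundant transcript in every library.

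Pgls encodes 6-phosphogluconolactonase, which hydrolyses the lactone between those steps (chromosome 8, 71592176 to 71601092). With CBR-5884, Pgls had 75.9, 73.3 and 82.4 FPKM, against 94.1 and 116 FPKM with solvent. All CBR-5884 libraries were below both solvent libraries (log2 fold change -0.44, SE 0.11, 95% interval -0.74 to -0.14, limma adjusted p = 0.170). In solvent replicate 5, 60.0 of its FPKM belonged to a transcript of 618 nt that Cufflinks assembled in that library alone, and 56.5 to the reference transcript of 893 nt. With reference transcripts only the log2 fold change turned to 0.080 (limma adjusted p = 0.885), and without solvent replicate 5 it was -0.28 (limma adjusted p = 0.317). When each transcript was weighted by its length, a choice made after the data were seen, Pgls was at 79.2, 76.5 and 86.0 FPKM with CBR-5884, against 98.2 and 102 FPKM with solvent (log2 fold change -0.31, limma adjusted p = 0.0886). Pgls shares 776 nt of exons with Fam129c on the same strand, whose transcripts stayed below 1 FPKM each. By the same measure of likeness as for Me1, Ppdpf and Aurka were among the tested genes closest to Pgls, at differences of 0.025 and 0.029, and neither was called (limma adjusted p = 0.150 and 0.208).

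**Figure D2:**
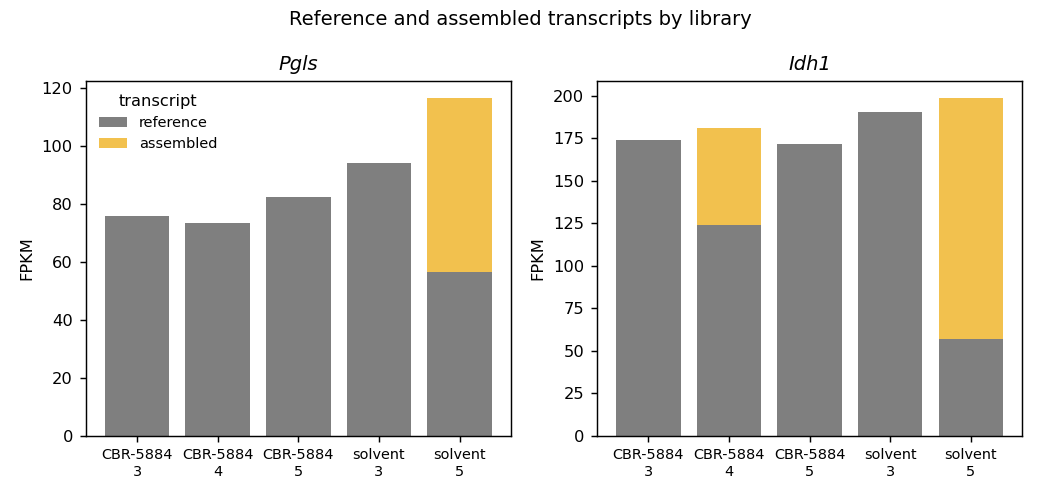
FPKM of Pgls and Idh1 in each library (linear axes from 0), split into reference transcripts (grey) and transcripts assembled by Cufflinks in that library (yellow). Assembled transcripts appear in solvent replicate 5 for both genes and in CBR-5884 replicate 4 for Idh1.

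Of the non-oxidative branch, Taldo1 was higher with CBR-5884 in every library, and the groups overlapped for the other 3 genes. Taldo1 encodes transaldolase, which moves a dihydroxyacetone unit between sugar phosphates (chromosome 7, 141392199 to 141402968). With CBR-5884, Taldo1 had 847, 931 and 834 FPKM, against 734 and 643 FPKM with solvent. The deposited intervals were apart as well, with a lowest bound of 798 FPKM with CBR-5884 and a highest bound of 766 FPKM with solvent. The log2 fold change was 0.34 (SE 0.08, 95% interval 0.11 to 0.57, limma adjusted p = 0.163).

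Tkt encodes transketolase, the thiamine-dependent enzyme that transfers a glycolaldehyde unit (chromosome 14, 30548359 to 30574720). With CBR-5884, Tkt had 158, 185 and 174 FPKM, against 178 and 174 FPKM with solvent. Both solvent values lay inside the range of the CBR-5884 values. The difference on the log2 scale was -0.04 (SE 0.08, limma adjusted p = 0.820), with a 95% interval of -0.24 to 0.17. It was slightly positive after rescaling to TPM (0.0077), quantile normalization (0.0021) or median ratios (0.0028). The ratio of Taldo1 to Tkt was 5.35, 5.03 and 4.81 with CBR-5884 and 4.12 and 3.69 with solvent, so that the groups did not overlap. They did overlap for Pgd to Taldo1, at 0.489, 0.482 and 0.544 with CBR-5884 and 0.509 and 0.569 with solvent. They also overlapped for Rpe to Rpia, at 1.34, 1.64 and 1.62 with CBR-5884 and 1.24 and 1.39 with solvent. How often ratios of other gene pairs overlap was not tested.

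Rpia and Rpe, which interconvert ribulose 5-phosphate with ribose 5-phosphate and xylulose 5-phosphate, were expressed at a much lower level than their neighbours in the pathway. Rpe, the epimerase gene (chromosome 1, 66700831 to 66719805), had 13.9, 16.4 and 15.3 FPKM with CBR-5884, against 11.9 and 13.9 FPKM with solvent. Solvent replicate 5 exceeded CBR-5884 replicate 3 by a small margin, so the groups overlapped (log2 fold change 0.22, SE 0.10, 95% interval -0.05 to 0.49, limma adjusted p = 0.327). Without solvent replicate 3 the log2 fold change of Rpe was 0.12, and without solvent replicate 5 it was 0.33. Rpe was the 1 member with a second reference transcript above 0, at 2.13 FPKM in CBR-5884 replicate 5 alone, and 558 nt of its exons overlap Kansl1l on the opposite strand. Rpia, the isomerase gene (chromosome 6, 70765720 to 70792232), had 10.4, 9.98 and 9.44 FPKM with CBR-5884, against 9.63 and 10.0 FPKM with solvent. Those ranges nearly coincided (log2 fold change 0.01, SE 0.06, 95% interval -0.15 to 0.17, limma adjusted p = 0.925). With 508 to 576 implied fragments per library, Rpia was nearly as shallow as Me1.

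Idh1 encodes the cytosolic and peroxisomal isocitrate dehydrogenase, which yields NADPH and 2-oxoglutarate (chromosome 1, 65158616 to 65186500). With CBR-5884, Idh1 had 174, 181 and 172 FPKM, against 190 and 199 FPKM with solvent. Every CBR-5884 library was below both solvent libraries by a small amount (log2 fold change -0.15, SE 0.05, 95% interval -0.27 to -0.02, limma adjusted p = 0.219). Assembled transcripts held 57.5 of its FPKM in CBR-5884 replicate 4 and 142 in solvent replicate 5. With reference transcripts only, Idh1 was at 174, 124 and 172 FPKM with CBR-5884, against 190 and 56.7 FPKM with solvent, and its log2 fold change turned to 0.57 (SE 0.57, limma adjusted p = 0.678). Weighted by length, it was at 176, 179 and 174 FPKM with CBR-5884, against 192 and 195 FPKM with solvent. Me1 and Idh1 thus differed in direction: the FPKM of Idh1 was 22.6, 20.8 and 21.2 times that of Me1 with CBR-5884 and 38.1 and 42.1 times with solvent.

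**Figure D3:**
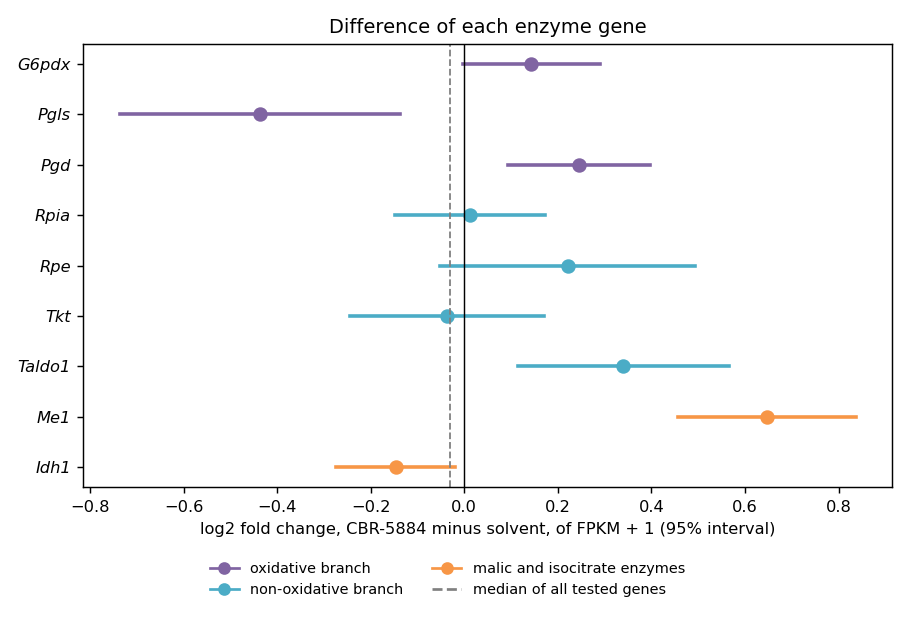
Log2 fold change of FPKM + 1, CBR-5884 minus solvent, for each enzyme gene (points) with limma's 95% interval (lines), coloured by branch; the dashed line is the median of all genes tested. The intervals of Pgd, Taldo1 and Me1 lie above 0 and those of Pgls and Idh1 below 0, before adjustment for multiple tests.

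The order of the levels was the same in both groups. From highest to lowest it was Taldo1, Pgd, Idh1, Tkt, G6pdx, Pgls, Rpe, Rpia and Me1. The libraries of neighbouring genes in that order did not overlap within a group, except for Idh1 and Tkt with CBR-5884. The mean FPKM of Taldo1 was 106 times that of Me1 with CBR-5884 and 142 times with solvent. By their mean over the 5 libraries, Taldo1 stood at the 99.4th percentile of all genes tested, Pgd at the 98.6th, and Me1 at the 34.3rd. The summed FPKM of the oxidative branch was 617, 656 and 676 with CBR-5884, against 587 and 604 with solvent. That of the non-oxidative branch was 1029, 1142 and 1032 with CBR-5884, against 933 and 841 with solvent. Taldo1 made up most of that sum, with a mean of 870 of 1068 FPKM with CBR-5884 and 688 of 887 FPKM with solvent. For each other gene of that branch the groups overlapped. The oxidative branch made up 37.8 ± 1.6% of the pathway's summed FPKM with CBR-5884 (SD, n = 3) and 40.2 ± 2.3% with solvent (SD, n = 2), and the groups overlapped.

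Of the genes around the pathway, in lists drawn up with earlier results of these data known, none was called in either direction. Among 12 genes that feed or branch from the pentose phosphate pathway 8 were tested, 5 positive and 3 negative, with a median log2 fold change of 0.04. Their smallest p belonged to Tigar, a fructose bisphosphatase that favours entry into the pathway, at 3.94, 4.05 and 3.67 FPKM with CBR-5884, against 2.95 and 3.42 FPKM with solvent (limma adjusted p = 0.270). H6pd, the glucose-6-phosphate dehydrogenase of the endoplasmic reticulum, and Pgm2 followed (limma adjusted p = 0.379 and 0.548). The transketolase-like genes Tktl1 and Tktl2 were listed at 0 in all 5 libraries.

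A list of other NADPH sources also held related enzymes that do not themselves make NADPH, such as the NAD kinases. In it 10 of 12 genes were tested, with 2 positive and 8 negative and a median log2 fold change of -0.10. Idh2, the mitochondrial counterpart of Idh1, was at 27.7, 27.7 and 29.6 FPKM with CBR-5884, against 33.8 and 35.6 FPKM with solvent. It lay lower in all 3 CBR-5884 libraries (log2 fold change -0.28, SE 0.06, limma adjusted p = 0.132). Nadk2, the mitochondrial NAD kinase, was at 6.10, 6.02 and 6.46 FPKM with CBR-5884, against 5.24 and 5.50 FPKM with solvent (limma adjusted p = 0.239). Mthfd2, a folate enzyme of mitochondria, was at 3.38, 4.12 and 4.22 FPKM with CBR-5884, against 4.52 and 5.09 FPKM with solvent (limma adjusted p = 0.320).

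Redox enzymes that use NADPH, or work beside such enzymes, had 10 positive and 2 negative log2 fold changes among 12 of 13 genes tested, with a median of 0.13. In 8 of the 12 every CBR-5884 library was above both solvent libraries, and in 1 every one was below, against 16.6% and 24.9% of all genes tested. Because this list was drawn up with earlier results of these data known, that contrast is a description and not a test. Nqo1, a quinone reductase, was at 28.7, 35.4 and 32.7 FPKM with CBR-5884, against 19.4 and 21.9 FPKM with solvent (log2 fold change 0.62, SE 0.11, limma adjusted p = 0.131). Akr1b8, an aldo-keto reductase, was at 29.7, 34.6 and 33.2 FPKM with CBR-5884, against 20.4 and 24.0 FPKM with solvent (limma adjusted p = 0.132). The cytosolic thioredoxin reductase gene Txnrd1 was at 165, 186 and 184 FPKM with CBR-5884, against 146 and 154 FPKM with solvent (limma adjusted p = 0.192). Txnrd2 was listed at 0 in every library, and such a 0 can be a failed estimate.

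Subunits of the phagocyte NADPH oxidase centred on a median of -0.06 on the log2 scale over 6 genes, 2 positive and 4 negative; Cyba was not analysed here. For Rac2 the log2 fold change was -0.12 (limma adjusted p = 0.327), and for Ncf1 -0.11 (limma adjusted p = 0.353). Biosynthetic NADPH users had a median of 0.07 over 9 tested genes, 6 positive and 3 negative. In that list the log2 fold change was -0.22 for Fasn of fatty acid synthesis (limma adjusted p = 0.329).

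Regulators of NRF2 had a median of 0.05 over 8 genes, 5 positive and 3 negative. Nfe2l2, which encodes NRF2, was at 114, 122 and 120 FPKM with CBR-5884, against 111 and 129 FPKM with solvent, so the groups overlapped. Cul3, the ubiquitin ligase scaffold that acts with KEAP1, was at 32.7, 33.0 and 32.6 FPKM with CBR-5884, against 27.0 and 28.5 FPKM with solvent (log2 fold change 0.23, limma adjusted p = 0.132). Its ring partner Rbx1 was at 25.3, 26.1 and 27.0 FPKM with CBR-5884, against 22.4 and 23.1 FPKM with solvent (limma adjusted p = 0.173). Maff, a small MAF protein, was at 1.70, 2.00 and 2.11 FPKM with CBR-5884, against 1.55 and 1.28 FPKM with solvent (limma adjusted p = 0.313).

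**Figure D4:**
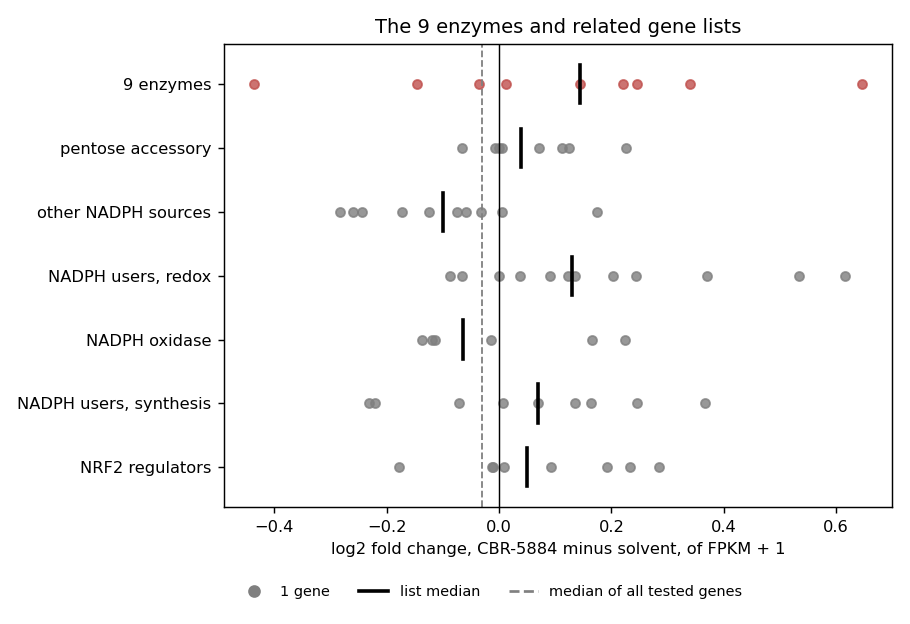
Log2 fold changes of FPKM + 1, CBR-5884 minus solvent, of the 9 enzymes (red) and of the tested genes of related lists (grey), 1 point per gene, with the list median (bar) and the median of all genes tested (dashed line). The median is 0.14 for the 9 enzymes and 0.13 for redox NADPH users. It is -0.10 for the list labelled other NADPH sources, which also holds related enzymes such as NAD kinases. No gene shown was called.

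Markers of the labelled cell type were present, with a summed FPKM of 2764 to 2837 with CBR-5884 and 2555 to 2714 with solvent over 7 macrophage genes. Most of that sum was Cd68 (mean 1311 FPKM with CBR-5884, 1149 with solvent) and Csf1r (885 and 937). The 7 genes did not share a direction, with 4 positive and 3 negative log2 fold changes. In every CBR-5884 library 2 of them were above both solvent libraries, and 2 others, Cd14 and Fcgr1, were below. All 5 erythroid genes were listed at 0, and the summed FPKM of 6 lymphoid genes and of 5 mast cell and basophil genes stayed below 1 in every library. The 6 dendritic cell genes summed to 0.609 to 1.21 FPKM with CBR-5884, against 1.40 to 2.38 FPKM with solvent. For 8 neutrophil genes the sums were 10.4 to 12.9 FPKM with CBR-5884 and 10.0 to 20.7 FPKM with solvent, with Ly6g and Retnlg at 0 and S100a8 the most abundant. For 5 fibroblast genes they were 10.8 to 17.1 FPKM with CBR-5884 and 17.9 to 18.9 FPKM with solvent, with the collagen genes Col1a1 and Col1a2 the most abundant. The 4 endothelial genes summed to 2.23 to 2.95 FPKM with CBR-5884, against 2.85 to 2.99 FPKM with solvent. The part of these cells in the differences above was not tested, and in bulk RNA fewer cells of a type and less RNA per cell cannot be told apart.

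**Figure D5:**
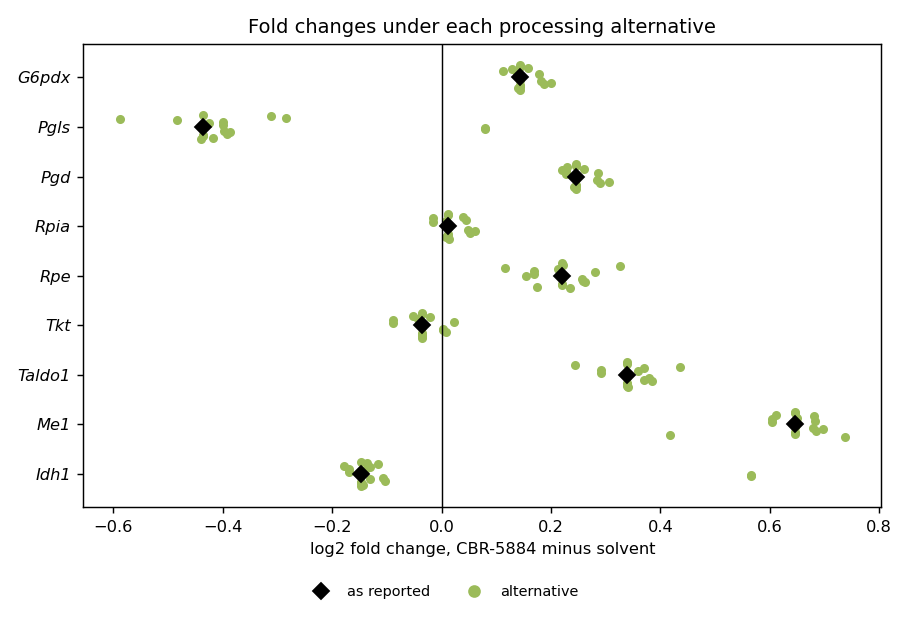
Log2 fold change of each enzyme gene, CBR-5884 minus solvent, as reported (black diamonds) and under 18 other processing settings (green points). Pgd, Taldo1, Rpe, G6pdx and Me1 stay above 0 in all of them, while Pgls and Idh1 cross 0 when assembled transcripts are left out.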

How the data were processed

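Per the submitters' processing notes, the authors used Bowtie2, TopHat2 and Cufflinks on mm10 (GRCm38). No source used here gives versions, the annotation release or the strand setting. Per the labels' protocols, a strand-preserving (directional) kit was used, with single-end reads of 75 bp. The deposited files list Ensembl and assembled transcripts with FPKM, a 95% interval and coverage, estimated library by library. Reference transcripts were matched to GENCODE M21 genes (GRCm38; 99.5% matched). Assembled transcripts were used if they had 200 nt or more and if a gene of the same strand covered 50% or more of their exonic bases. The rest were left out. With the unmatched reference transcripts, they held 64.0% (solvent replicate 5) to 70.3% (solvent replicate 3) of a library's summed FPKM. Of the covered bases they held 8.55% to 10.2% in the same libraries. The TPM scale was taken over the genes kept. There were 49341 genes, 95 of which were missing from 1 or more libraries.

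Genes averaging 1 FPKM or more were fitted on log2(FPKM + 1) with limma 3.58.1 in R 4.3.3 (variance trend, two-sided, Benjamini-Hochberg adjustment), checked on simulated data. Intervals of fold changes are limma's, unadjusted. Alternatives were other pseudocounts, filters and scalings, reference transcripts only, the most abundant of them, no trend, a replicate block and each library left out, with 2 more added after seeing the data. Implied fragments are coverage times length over 75. Named genes were all members, and in each other list those called or else the 3 with the smallest p, plus the 3 tested genes most like the members with the highest and the lowest fold change. Some genes that this rule names are not reported here. Nfe2l2, marker genes and a few paralogs and overlapping genes were named outside that rule, after their values were seen. Members, lists and the motif searched for were chosen with earlier results of these data known. No library was a copy of another.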

Additional observations from a re-analysis of the deposited data

How the results depend on the processing

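Of 18 alternatives, G6pdx, Pgd, Rpe, Taldo1 and Me1 kept a positive log2 fold change in all. The ranges were 0.42 to 0.74 for Me1, 0.22 to 0.31 for Pgd, 0.24 to 0.44 for Taldo1, 0.11 to 0.20 for G6pdx and 0.12 to 0.33 for Rpe. At an unadjusted limma p below 0.05, Idh1 passed in 9 of the 18, G6pdx in 6 and Rpe in 2. Idh1 and Pgls turned to 0.57 and 0.080 with reference transcripts only and with the most abundant reference transcript, where the assembled transcripts of solvent replicate 5 are left out by construction. Tkt turned to 0.0077 on the TPM scale, 0.0021 after quantile normalization, 0.0028 with median ratios and 0.023 without CBR-5884 replicate 3, and ranged from -0.089 to 0.023 with 1 library left out. Rpia turned to -0.016 without CBR-5884 replicate 3 and to -0.015 without solvent replicate 3, and ranged from -0.016 to 0.044 with 1 library left out. Of the 9 enzyme genes 0 were called in 17 alternatives, and 1, Me1, when transcripts were weighted by length (limma adjusted p = 0.049); its adjusted p reached 0.321 elsewhere.

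The number of genes called over all genes tested was 24 as reported. It was 38 without a filter, 9 with a mean FPKM of at least 5, 39 with reference transcripts only and 65 with transcripts weighted by length. Leaving out 1 library gave 19 to 89, with 89 and 66 without solvent replicates 3 and 5, where the lone solvent library is assumed to vary like the others; the cause of these changes was not tested. With the replicate number as a block in replicates 3 and 5, 3 genes were called and 0 of the 9. The labels do not say that the numbers mark shared animals or days, and the deviations of same-numbered libraries correlated at 0.07 and 0.08. Depth limits Me1 and Rpia most, with 439 and 508 implied fragments in their shallowest libraries.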
